A study of Mus musculus with 24 samples.

Results

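The kinesins described here were the 35 genes whose symbol is Kif followed by a number and at most a single letter from a to c, out of 15323 distinct gene symbols listed in at least 1 of 6 deposited tables. Kinesins are motor proteins that hydrolyse ATP to move along microtubules or to take their ends apart. Mitotic kinesins build the spindle, align chromosomes and close off the daughter cells, and their genes are known to be transcribed mainly in G2 and mitosis, whereas transport kinesins carry vesicles, mitochondria and ciliary cargo in dividing and resting cells alike. By these textbook roles 11 of the 35 were sorted as mitotic, 13 as transport motors and 11 as others, which have signalling, ciliary or mixed roles. The symbols Kif2b, Kif4b, Kif12, Kif19b and Kif25 were in none of the tables and were not analysed here.

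The study measured polyadenylated RNA by sequencing in mouse mammospheres, which are floating spheres that mammary cells form on non-adhesive plates in serum-free medium with growth factors. There were 24 libraries in 8 groups, all from FVB/Hsd mice. The deposited tables hold group means and the authors' statistics, without values of single libraries, so the spread between libraries enters only through the deposited p-values and it could not be seen whether libraries of different groups overlapped. The title of the study concerns p53 loss and Myc activity in the stem cells of breast cancer.

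The empty-vector spheres (3 libraries) and the Myc-ER spheres (3 libraries) came from wild-type glands of 7-week-old mice, were infected with the lentiviral vector pWPI without an insert or with MycER, and were taken at passage 3, 72 h after plating. Myc-ER is Myc fused to a ligand-binding part of the oestrogen receptor, and the labels name no ligand. The spheres labelled ErbB2 tumour (5 libraries) were grown from breast tumours of 12 to 15-week-old MMTV-ErbB2 transgenic mice at passage 6 to 7, were not infected, and carry a mutated ErbB2 per the file headers. Nutlin-3, which blocks the binding of Mdm2 to p53, was given to 3 of these tumour cultures at 2.5 µM for 72 h. The Trp53 knockout spheres (2 libraries) came from glands of 7-week-old mice at passage 6 to 7 and were not infected. Uninfected wild-type spheres from 7-week-old mice at passage 1 were sorted for the membrane dye PKH, which is diluted at each cell division, to give 2 libraries of PKH-high and 3 of PKH-negative cells. Sorted PKH-negative cells infected with Myc-ER and grown to passage 3 gave a further group (3 libraries), whose reference was the uninfected PKH-negative group. The ErbB2 tumour, Nutlin-3, knockout and PKH-negative Myc-ER groups were also taken 72 h after plating. The labels give no such time for the uninfected sorted groups, so whether it matched in the PKH-negative Myc-ER comparison is unknown. Passage and infection therefore differ along with the named condition in the ErbB2, the knockout and the PKH-negative Myc-ER comparison, as does age in the ErbB2 comparison, and their parts cannot be told apart. The empty-vector group served as the reference in 3 tables and the PKH-negative group in 2, so those comparisons share their reference libraries. Of the 5 untreated ErbB2 tumour libraries compared with empty-vector spheres, 3 were also the reference for Nutlin-3. A high value in those 3 therefore counts towards higher in the former comparison and towards lower in the latter. The headers of the ErbB2 and knockout tables describe their reference only as wild-type spheres, which were taken here to be the empty-vector spheres because the labels have no other unsorted group without a transgene, knockout or drug.

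The summed group means per table ran from 36651122 to 48054435 normalised counts. In the authors' deposited tables the mean count of Myc was 16782 in Myc-ER spheres and 2975 in empty-vector spheres, and that of Trp53 was 2998 in knockout spheres and 4207 in empty-vector spheres. The mean of Cdkn1a, a p53 target, was 2370 in the knockout spheres against 22565, and 21435 after Nutlin-3 against 11731. Mouse Erbb2 had a mean of 736 in the spheres labelled ErbB2 tumour and 1498 in empty-vector spheres, so the mouse gene's count does not show the transgene, whose species the labels do not give. Of 10 mammary epithelial markers, 6, among them Epcam, Krt8 and Cdh1, were not listed in the 2 tables of the spheres labelled ErbB2 tumour. Krt8 had a mean of 1032 in empty-vector spheres in the Myc-ER table. The authors' limit of 10 on the mean therefore does not account for its absence from the table against empty-vector spheres. The Nutlin-3 table holds no empty-vector libraries, so this cannot be said there. Nothing about the level of these 6 in tumour spheres was read from their absence. Of 10 fibroblast markers, 4 were called lower and 1 higher in tumour spheres, with a summed mean of 422124 against 703478 in empty-vector spheres. Col3a1 among them was not called, with a mean of 126657 in tumour spheres against 106832 in empty-vector spheres. In bulk RNA, fewer cells of a type and less RNA per cell cannot be told apart.

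All 11 mitotic kinesins were higher in Myc-ER spheres, in the spheres labelled ErbB2 tumour and in Trp53 knockout spheres than in empty-vector spheres, and all 11 were lower after Nutlin-3 and in PKH-high cells. None passed the test when Myc-ER was expressed in PKH-negative cells. A gene was called higher or lower where the adjusted p of the authors' DESeq2 test was under 0.05. Of the 35 kinesins, the 11 mitotic ones had this order of 5 calls, as against 0 of 13 transport and 0 of 11 other kinesins. The share of all genes with this order of calls was not computed, and some of the 5 comparisons share libraries. The heat map of log2 fold changes shows the mitotic block and the mixed pattern below it.

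**Figure D1:**
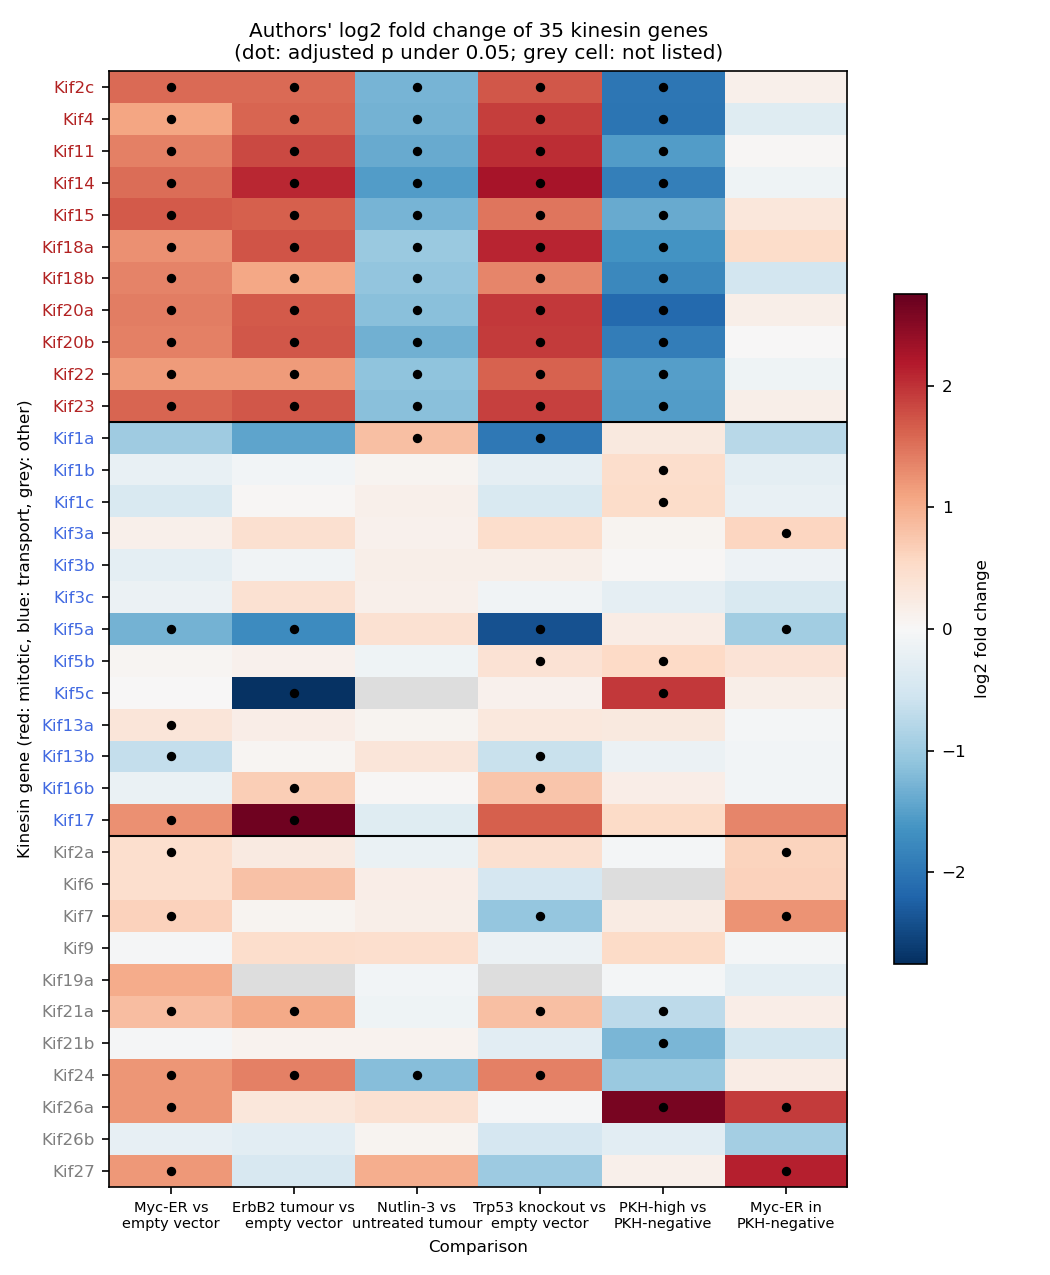
Heat map of the authors' log2 fold change (colour, red higher and blue lower in the first-named group) for 35 kinesins (rows, by class) in 6 comparisons (columns); dots mark an adjusted p under 0.05 and grey cells mark genes not listed in that table. The 11 mitotic kinesins carry a dot in the same direction within each of the 5 columns from the left and none in the column at the right.

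Promoters of the mitotic kinesins are shown because these genes moved together. RefSeq windows from 250 bases before to 50 after the transcription start (build GRCm38.p6) were found for 29 of the 35 kinesins and searched on both strands. The cell cycle genes homology region, CHR, was searched as TTTGAA, which reads TTCAAA when it lies on the opposite strand, and in its variant TTCGAA, which reads alike on both strands. The CCAAT box was searched by its name, which reads ATTGG when it lies on the opposite strand. The CHR is known as a binding site of DREAM and MuvB complexes in genes of late cell cycle. In the printed stretches no match overlaps another, and in Kif20b 2 copies stand end to end. The stretches read 5′ to 3′ on the strand of the gene, with matches in capitals.
Kif11, chr19:37376302-37376381, plus strand, the 80 bases before the start: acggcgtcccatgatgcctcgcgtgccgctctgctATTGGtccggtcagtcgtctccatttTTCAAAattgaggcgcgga
Kif4, chrX:100626072-100626101, plus strand: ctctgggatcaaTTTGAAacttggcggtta
Kif15, chr9:122951050-122951079, plus strand: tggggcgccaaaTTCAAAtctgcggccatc
Kif18b, chr11:102925104-102925133, minus strand: cggaccggctagTTTGAAcgcgccgcgccg
Kif20b, chr19:34922353-34922382, plus strand: gagccgccattgTTTGAATTTGAAaaccgg
Kif22, chr7:127042420-127042449, minus strand: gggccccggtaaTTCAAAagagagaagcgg
Kif23, chr9:61946780-61946809, minus strand: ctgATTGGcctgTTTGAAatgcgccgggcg
Kif24, a kinesin outside the mitotic class, chr4:41464857-41464886, minus strand: tcggcgcgcgcgTTCGAActggcgcttgtg
Kif18a, a mitotic kinesin with no match, chr2:109280658-109280737, plus strand, the 80 bases before the start: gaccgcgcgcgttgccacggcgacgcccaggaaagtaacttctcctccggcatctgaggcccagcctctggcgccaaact
Kif3a, a transport kinesin, chr11:53567289-53567368, plus strand, the 80 bases before the start: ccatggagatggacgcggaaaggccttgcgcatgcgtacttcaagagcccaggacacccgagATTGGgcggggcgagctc

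A CHR spelling stood in the windows of 9 of 10 mitotic kinesins, 1 of 10 transport kinesins and 3 of 9 other kinesins, compared with 19.2% of all 32851 windows of the same length. Within 50 bases on either side of the start, a limit chosen after the positions were seen, it stood in 7 of 10 mitotic, 1 of 10 transport and 2 of 9 other kinesins and in 5.31% of all windows. A CCAAT spelling was found in 6 of 10 mitotic, 3 of 10 transport and 4 of 9 other kinesins, near its share of 37.4% over all windows in the latter 2 classes. Spellings of both kinds, with the CHR near the start, were held by 5 of 10 mitotic kinesins, 0 of 10 transport kinesins, 2 of 9 others and 2.24% of all windows. Kinesins were counted by gene, with a match in any of a gene's windows, whereas these shares are by window. Counted by gene over the 11193 listed genes with a window, the 4 shares were 16.5%, 4.32%, 42.4% and 1.97% in this order. These matches are descriptions of letters and no test of binding was made.

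**Figure D2:**
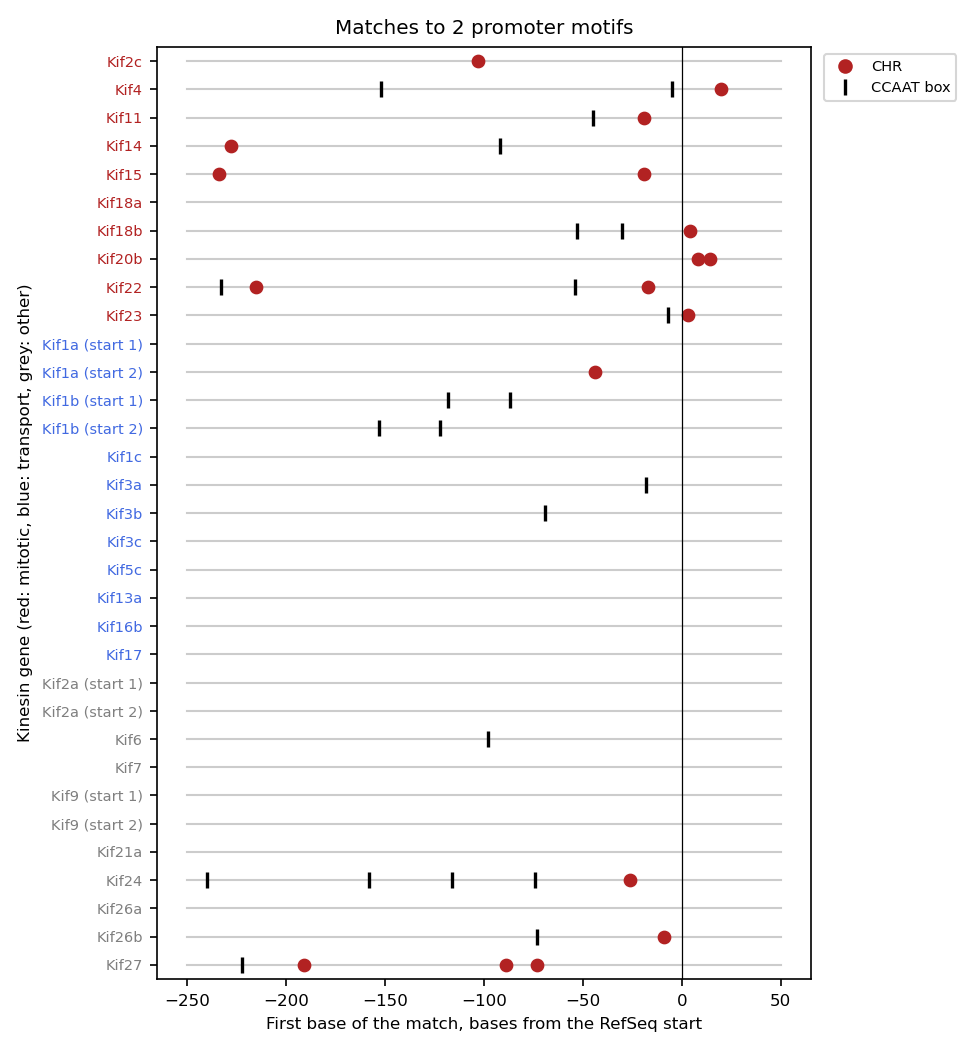
Positions of CHR (red dots) and CCAAT (black ticks) spellings from 250 bases before to 50 bases after the RefSeq start (x axis, bases), with 1 line per window and rows ordered by class. Red dots near 0 lie mostly in the upper, mitotic rows.

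Kif11 (chr19:37376403-37421859, plus strand, mm10), the motor that slides spindle microtubules apart so that the poles separate, had a mean of 2251 in Myc-ER spheres against 784 in empty-vector spheres. It stood at 2586 in the spheres labelled ErbB2 tumour against 716, and at 3399 in knockout spheres against 793. The 3 values for the empty-vector group come from the same libraries scaled separately in each table. After Nutlin-3 the mean of Kif11 was 1010 against 2548 untreated, and in PKH-high cells it was 602 against 1839 in PKH-negative cells. With Myc-ER in PKH-negative cells it was 2070 against 2000, next to the 2251 of unsorted Myc-ER spheres in a separately scaled table. In the authors' deposited tables the log2 fold changes of Kif11 in this order were 1.39, 1.82, 2.03, -1.38, -1.53 and 0.04, with adjusted p of 0.00403, 4.26e-06, 0.000121, 3.87e-23, 0.00556 and 0.957.

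Kif15, which can stand in for Kif11 at the spindle, was the mitotic kinesin with the highest ratio of means in Myc-ER spheres, 1921 against 551 or 3.49-fold. Its ratio was 2.86-fold in knockout spheres, the next to lowest of the class there, with means of 1598 against 558. In PKH-high cells Kif15 had the smallest fall of the class, from 1207 to 444.

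Among the motors that act on chromosomes and kinetochores, Kif2c (chr4:117159639-117182639, minus strand) removes tubulin from microtubule ends and releases wrong attachments. Its mean was 2122 in Myc-ER spheres against 664, 1824 in the spheres labelled ErbB2 tumour against 607, and 2295 in knockout spheres against 673. It was 709 after Nutlin-3 against 1661, 403 in PKH-high cells against 1685, and 2047 in PKH-negative Myc-ER cells against 1832. Kif18a, which limits the length of kinetochore microtubules, was the least abundant of the class by count in each empty-vector mean, and rose from 263 to 1177 in knockout spheres, 4.47-fold. Kif18b, which acts on astral microtubules, had the smallest ratio of the class in the spheres labelled ErbB2 tumour, 969 against 464 or 2.09-fold, and in knockout spheres, 1323 against 514 or 2.58-fold. The chromokinesins Kif4 and Kif22 bind chromosome arms. Their smallest rises were those in Myc-ER spheres for Kif4, 1521 against 679 or 2.24-fold, and in the spheres labelled ErbB2 tumour for Kif22, 1376 against 604 or 2.28-fold. Reads of Kif4 cannot be told from those of Pdzd11 on the opposite strand over 15.1% of its exonic length, because no source used here says whether reads were counted by strand.

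Among the motors of cell division's last step, Kif20a (chr18:34624613-34633277, plus strand), which brings the chromosomal passenger complex to the central spindle, was the most abundant mitotic kinesin by count in 11 of the 12 group means. It had means of 3063 against 1061 in Myc-ER spheres, 3173 against 969 in the spheres labelled ErbB2 tumour, and 4287 against 1074 in knockout spheres. Its fall in PKH-high cells was the largest of the class, 497 against 2321 or 4.67-fold lower, and there the counts of Kif11 and Kif22 stood above it. After Nutlin-3 it stood at 1280 against 2860. Cdc23 overlaps 29.3% of the exonic length of Kif20a on the opposite strand. Kif23 (chr9:61915905-61946774, minus strand), the motor subunit of centralspindlin, had 2085 against 614 in Myc-ER spheres, 1865 against 561 in the spheres labelled ErbB2 tumour and 2409 against 621 in knockout spheres. It had 770 against 1698 after Nutlin-3 and 483 against 1462 in PKH-high cells. Kif14, which recruits citron kinase to the midbody, had the highest ratio of the class in knockout spheres (1481 against 300, 4.95-fold), in the spheres labelled ErbB2 tumour (1153 against 270, 4.26-fold) and the largest fall after Nutlin-3 (413 against 1168, 2.83-fold lower). Kif20b, a further motor of cytokinesis, had 3236 against 826 in knockout spheres and 487 against 1926 in PKH-high cells.

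**Figure D3:**
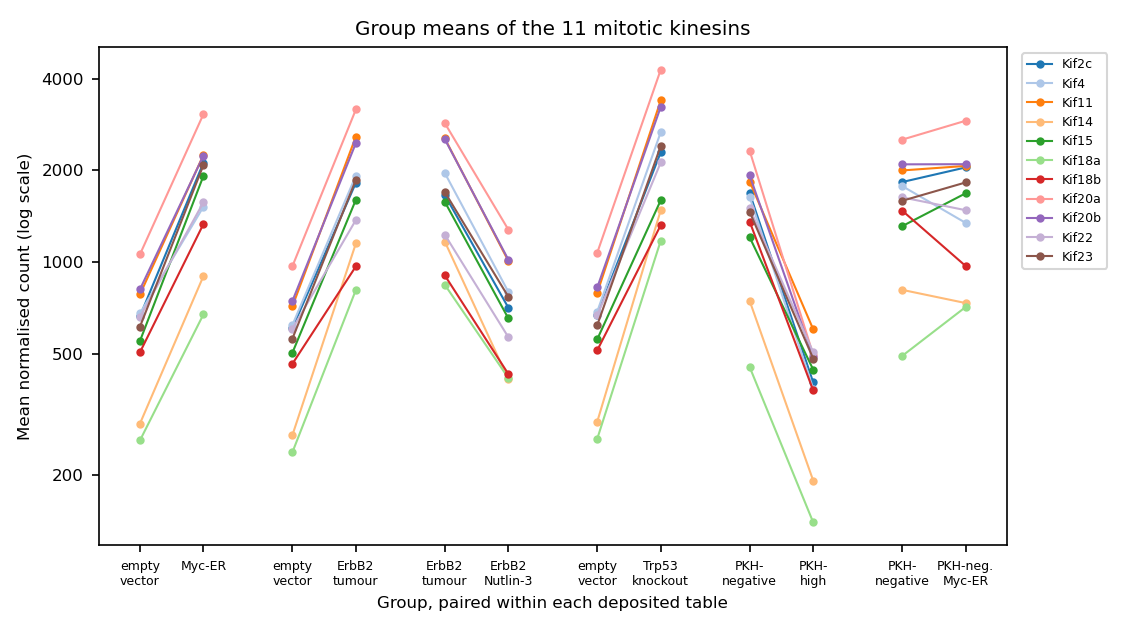
Mean normalised count (y axis, log scale) of each of the 11 mitotic kinesins in the reference and the compared group (x axis), joined by a line within each of the 6 tables; no error bars are drawn because the tables hold group means only. The lines rise in the Myc-ER, ErbB2 and Trp53 knockout pairs, fall in the Nutlin-3 and PKH-high pairs, and cross in the pair at the right.

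In Myc-ER spheres 11 of 11 mitotic kinesins were called higher, where 26.7% of 13873 genes were called higher and 50.8% were called in either direction. Their ratios of means ran from 2.24 to 3.49-fold. In the authors' deposited table their median log2 fold change was 1.39, between 1.08 and 1.69, with standard errors implied by the p-values of 0.262 to 0.440, beside a median of -0.02 over all genes. The highest adjusted p was that of Kif4, 0.0135 by the authors' DESeq2 test.

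In the spheres labelled ErbB2 tumour 11 of 11 were called higher, beside 13.5% of 13288 genes called higher and 27.1% called at all. The ratios of means ran from 2.09 to 4.26-fold. Their median log2 fold change in the authors' deposited table was 1.68, between 1.06 and 2.07, with implied standard errors of 0.238 to 0.373 and a median of 0.02 over all genes. The adjusted p by DESeq2 was at most 0.00123, for Kif22.

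After Nutlin-3 the same 11 genes were called lower, beside 7.03% of 13038 genes called lower, 7.71% called higher and 14.7% called at all. Their means fell 2.02 to 2.83-fold. In the authors' deposited table the median of their paired log2 fold changes was -1.27, between -1.53 and -1.02, and that of all genes was 0.03. This table pairs treated and untreated cultures by tumour, and its adjusted p ranged from 1.37e-29 to 8.6e-12 over the class, the lowest of the 6 tables.

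In Trp53 knockout spheres 11 of 11 were called higher, beside 22.3% of 14699 genes called higher and 45.9% called at all. The ratios ran from 2.58 to 4.95-fold. The authors' deposited table gives them a median log2 fold change of 1.9, between 1.34 and 2.27, with implied standard errors of 0.331 to 0.488, against 0.01 for all genes.

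In PKH-high cells 11 of 11 were called lower, beside 15.1% of 13959 genes called lower and 30.7% called at all. Their means were 2.72 to 4.67-fold lower than in PKH-negative cells. In the authors' deposited table the median log2 fold change was -1.76, between -2.14 and -1.39, with implied standard errors of 0.375 to 0.470, against 0.01 for all genes. The summed means of 3 lists of cell type markers were also much higher in PKH-high cells. For 10 epithelial markers the sum was 46736 against 6548, for 9 macrophage markers 46874 against 979 and for 10 endothelial markers 49925 against 5746. Among them Krt8 had 12333 against 162, Lyz2 27635 against 73.8 and Pecam1 12901 against 201. Itga6 and Trp63 of the epithelial list were not called, and Itga6 was lower, with 4327 against 5784. No listed marker of these 3 lists was at 0 in PKH-high cells, and the part of these cell types in the fall of mitotic kinesins was not tested.

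With Myc-ER in PKH-negative cells 0 of 11 mitotic kinesins were called by DESeq2, where 37.5% of 14382 genes were called, 18.9% higher and 18.5% lower. No member had an unadjusted p under 0.05 either. Their ratios of means ran from 0.658 to 1.45. The authors' deposited table gives a median log2 fold change of 0.04, between -0.51 for Kif18b and 0.50 for Kif18a, with implied standard errors of 0.346 to 0.510, against 0.238 to 0.488 in the 4 other tables that allow one. The mean of Myc in that table was 28517 against 5996, so the construct's RNA was present. The level of the reference differed: mitotic kinesins had means of 492 to 2525 in PKH-negative cells and of 260 to 1061 in empty-vector spheres, in tables scaled separately.

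The Myc-ER effects in the unsorted and the PKH-negative setting were compared by their difference, with standard errors implied by the deposited p-values. This test was added after the data were seen. Of 13431 genes tested, 6.4% were called at an adjusted p under 0.05 by this normal test. Among the mitotic kinesins 1 of 11 was called, Kif18b, with a difference of 1.87 on the log2 scale (95% interval 0.78 to 2.95, adjusted p 0.0184). The differences of the other 10 ranged from 0.77 to 1.66 and were all in the same direction, 9 of the 11 had an unadjusted p under 0.05, and the median of the 11 was 1.38. None of 13 transport kinesins was called, with differences of -0.58 to 0.39, and 1 of them, Kif3a, had an unadjusted p under 0.05. The share of all genes with an unadjusted p under 0.05 was not computed, so counts at that limit have no background beside them. Among the 11 other kinesins Kif7 was called, with a difference of -0.62 (-0.99 to -0.24, adjusted p 0.0255). The reference groups differ in infection, passage and sorting, which cannot be told apart from the setting.

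**Figure D4:**
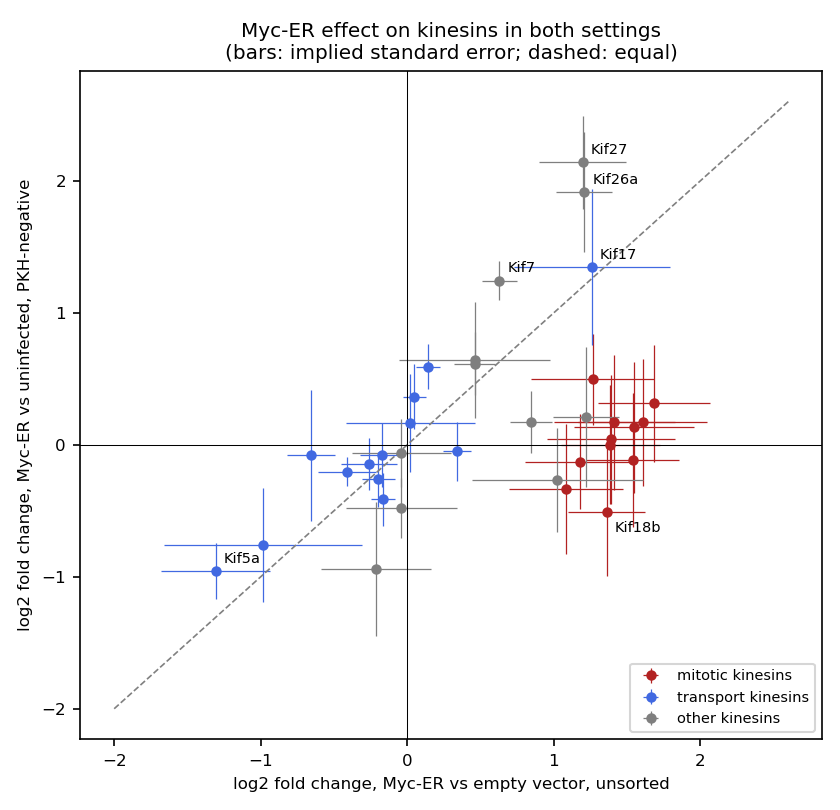
Log2 fold change of 35 kinesins with Myc-ER in unsorted spheres (x axis) and in PKH-negative cells (y axis), with bars of 1 implied standard error and a dashed line of equal effects. The mitotic kinesins (red) lie between 1.08 and 1.69 on the x axis and between -0.51 and 0.50 on the y axis, to the right of the line.

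Genes that work with the mitotic kinesins showed values in the same directions. Of 18 partners, such as the kinases Aurka and Plk1 and the midzone protein Prc1, 16 were called higher in Myc-ER spheres, 18 in the spheres labelled ErbB2 tumour and 18 in knockout spheres, while 17 were called lower after Nutlin-3 and 17 in PKH-high cells. Their median log2 fold changes in the authors' deposited tables were 1.34, 1.55, 1.80, -1.26 and -1.57, and -0.03 with Myc-ER in PKH-negative cells, where 1 of 18, Nusap1, was called lower. Of 15 proliferation genes, such as Mki67, Top2a and Mcm helicase subunits, 13, 15 and 15 were higher in the first 3 of these comparisons. Lower calls numbered 14 after Nutlin-3 and 9 in PKH-high cells. With Myc-ER in PKH-negative cells 1 of 15, Lin9, was called higher. Over all genes 26.7%, 13.5% and 22.3% were called higher in the first 3 comparisons. After Nutlin-3 and in PKH-high cells 7.03% and 15.1% were called lower. Top2a had means of 11256 against 3686 in Myc-ER spheres and 16090 against 3736 in knockout spheres. Of the mitotic kinesins outside the symbol pattern, Cenpe, which moves chromosomes to the spindle equator, had means of 3523 against 1151 in Myc-ER spheres, 3655 against 1054 in the spheres labelled ErbB2 tumour and 4242 against 1167 in knockout spheres. It had 1639 against 3713 after Nutlin-3 and 578 against 2569 in PKH-high cells, and all 5 differences were called. Kifc1, the minus-end directed motor that gathers spindle poles, was called in the same directions, with 1317 against 487 in Myc-ER spheres and 361 against 898 in PKH-high cells. Kifc5b, a close relative of Kifc1, was called in the same 5 directions, and reads may be split between these 2 genes.

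Transport kinesins showed no direction common to the 6 comparisons, although 11 of 13 had a positive log2 fold change in PKH-high cells and 10 of 12 after Nutlin-3. Of 13, the authors' test called 2 higher and 2 lower in Myc-ER spheres, 2 and 2 in the spheres labelled ErbB2 tumour, 2 and 3 in knockout spheres, 4 and 0 in PKH-high cells and 1 and 1 with Myc-ER in PKH-negative cells, and after Nutlin-3 1 of the 12 listed was higher. Counted in either direction, these shares lie near or below those of all genes called in each table, given above. In PKH-high cells 15.6% of all genes were called higher, beside 4 of 13 transport kinesins. Their median log2 fold changes in the authors' deposited tables lay between -0.17 and 0.27, against 1.27 or more in size for the mitotic class in the 5 tables where it was called.

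The ubiquitous motors were the most abundant kinesins. Per kilobase of exonic length, Kif1c, a carrier of dense-core vesicles and integrins, and Kif5b, the widely expressed conventional kinesin heavy chain, held the 2 highest ranks among kinesins in each of the 12 group means, with Kif5b above Kif1c in knockout spheres and in PKH-negative Myc-ER cells. Kif5b (chr18:6201002-6242174, minus strand) had mean counts of 9122 against 8830 in Myc-ER spheres, 8807 against 8133 in the spheres labelled ErbB2 tumour, 7635 against 8450 after Nutlin-3 and 10185 against 7828 in PKH-negative Myc-ER cells, none of them called. It was called higher in knockout spheres, 11919 against 9009, with an adjusted p of 0.0462 in the authors' deposited table, and in PKH-high cells, 10517 against 7197. Kif1c was called in PKH-high cells, with 13833 against 9750, and its ratio of means was between 0.743 and 1.11 in the other 5 tables. Kif1b, which carries mitochondria and synaptic vesicle precursors, was called higher in PKH-high cells, 5875 against 4222, and in no other table.

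The heterotrimeric kinesin-2 motors carry intraflagellar transport trains and membrane cargo. Kif3a had 2846 against 1874 in PKH-negative Myc-ER cells, its only call, with a log2 fold change of 0.59 in the authors' deposited table and an adjusted p of 0.00274. Kif3b and Kif3c were called in none of the 6 tables, with ratios of means from 0.831 to 1.16 for Kif3b and from 0.746 to 1.34 for Kif3c. Reads of Kif3c share 40.7% of its exonic length with genes on the opposite strand.

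Several motors of the class are known best from neurons. Kif5a, a neuronal conventional kinesin, had mean counts of 175 against 461 in Myc-ER spheres, 121 against 427 in the spheres labelled ErbB2 tumour, 81.5 against 473 in knockout spheres and 149 against 296 in PKH-negative Myc-ER cells, and all 4 were called lower. Its log2 fold changes in the authors' deposited tables were -1.31, -1.72, -2.40 and -0.96, with implied standard errors of 0.371, 0.569, 0.571 and 0.214. After Nutlin-3 it had 182 against 134 and in PKH-high cells 317 against 272, neither called. Kif1a, which carries synaptic vesicle precursors, fell from 5966 to 1417 in knockout spheres, 4.21-fold, and rose from 2473 to 4553 after Nutlin-3. Its means of 2317 against 5809 in Myc-ER spheres and 1751 against 5387 in the spheres labelled ErbB2 tumour were not called, with adjusted p of 0.219 and 0.179 and implied standard errors of 0.677 and 0.804 in the authors' deposited tables. Kif5c, a further neuronal form, had 6.29 against 47.5 in the spheres labelled ErbB2 tumour and 175 against 44.3 in PKH-high cells, both called, and was not listed in the Nutlin-3 table. Markers of nerve and glia differed in direction from each other. Map2 had 1011 in empty-vector spheres against 42.5 in knockout spheres, and 820 in PKH-high cells against 160. Tubb3 and Nefl were called higher in knockout spheres, with 1233 against 106 and 745 against 268. In PKH-high cells Nefl was called lower, with 48.8 against 346. The summed mean of the 8 listed nerve and glia markers was 2565.8 in knockout spheres against 2181.6, with 2 higher and 3 lower, and 2766 in PKH-high cells against 878, with 5 higher and 1 lower. In Myc-ER spheres it was 1528 against 2151, with 1 of 8 higher and 4 lower, and in PKH-negative Myc-ER cells 1782 against 965, with 2 of 8 higher. The 7 listed in the tables of the spheres labelled ErbB2 tumour summed to 2438 against 1709, with 1 higher and 3 lower, and to 2150 after Nutlin-3 against 2763, with none called. No listed marker was at 0 in these groups, and their part in the changes of Kif5a, Kif1a and Kif5c was not tested.

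Kif17, a homodimeric motor of dendrites and cilia, was low throughout, and its ratio of means was the highest of the class in the spheres labelled ErbB2 tumour, 8.14-fold, and in Myc-ER spheres, 2.76-fold. It was called higher in Myc-ER spheres, 40.4 against 14.7, and in the spheres labelled ErbB2 tumour, 109 against 13.4. Its means of 53.8 against 14.9 in knockout spheres and 57.8 against 16.1 in PKH-negative Myc-ER cells were not called, with adjusted p of 0.101 and 0.0579 in the authors' deposited tables. Kif16b, an endosome motor, was called higher in the spheres labelled ErbB2 tumour, 1527 against 948, and in knockout spheres, 1776 against 1050. Kif13b was called lower in Myc-ER spheres, 1407 against 2229, and in knockout spheres, 1472 against 2269. Kif13a, which carries endosomal cargo, was called in Myc-ER spheres, 1474 against 1162.

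The share of mitotic kinesins in the summed kinesin level followed these changes. Per kilobase of exonic length it was 16.1% in empty-vector spheres and 37.5% in Myc-ER spheres, 35.7% in the spheres labelled ErbB2 tumour against 16.0%, and 41.5% in knockout spheres against 16.0%. It was 17.2% after Nutlin-3 against 34.3% untreated, and 10.8% in PKH-high cells against 35.1% in PKH-negative cells. With Myc-ER in PKH-negative cells it was 33.8% against 35.1%. No replicate error can be given for these shares, and they differ from table to table for the same group by the scaling and, in the ErbB2 groups, by the libraries used. Kif20a ranked 8th among the kinesins per kilobase in empty-vector spheres, 3rd in Myc-ER, ErbB2 and knockout spheres and 12th in PKH-high cells.

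**Figure D5:**
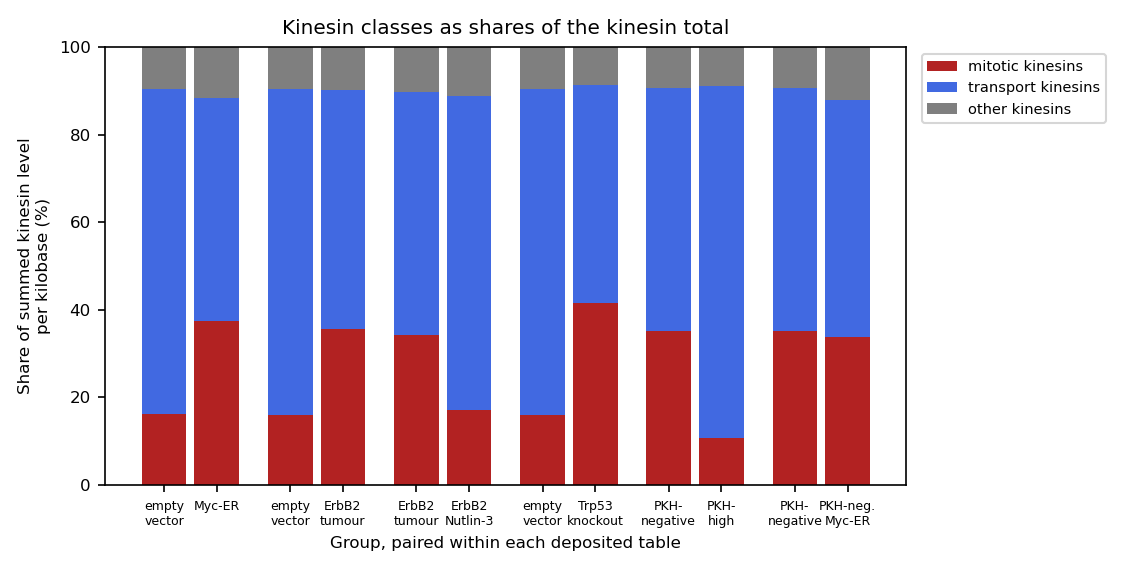
Shares of mitotic (red), transport (blue) and other (grey) kinesins in the summed mean normalised count per kilobase of exonic length (y axis, percent) for the reference and compared group of each of the 6 tables (x axis); bars stack to the whole kinesin level and carry no error because single libraries were not given. The red share is 16.0 to 17.2% in empty-vector and Nutlin-3 bars, 10.8% in PKH-high cells and 33.8 to 41.5% elsewhere.

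Of the other kinesins, 6 of 11 were called higher in Myc-ER spheres, 2 of 10 in the spheres labelled ErbB2 tumour and 4 of 11 with Myc-ER in PKH-negative cells. In knockout spheres 2 of 10 were higher and 1 lower, in PKH-high cells 1 was higher and 2 lower of 10, and after Nutlin-3 1 of 11 was lower. In either direction the 6 of 11 and 4 of 11 called with Myc-ER are near the 50.8% and 37.5% of all genes called there. All of these calls were higher, beside 26.7% and 18.9% of all genes called higher. The counts in the other 4 tables, in either direction, are near or below 27.1%, 45.9%, 30.7% and 14.7%. Kif24, a centriole kinesin that restrains cilium formation, had values close to those of the mitotic class. Its means were 389 against 164 in Myc-ER spheres, 398 against 151 in the spheres labelled ErbB2 tumour, 440 against 167 in knockout spheres and 152 against 354 after Nutlin-3, all called. In PKH-high cells it had 139 against 292, which was not called, with an adjusted p of 0.121 in the authors' deposited table. Kif21a, which stops microtubule growth at the cell cortex, was higher in Myc-ER spheres (1698 against 941), the spheres labelled ErbB2 tumour (1794 against 867) and knockout spheres (1716 against 960) and lower in PKH-high cells (795 against 1311). Its relative Kif21b was called lower in PKH-high cells, 590 against 1428, and in no other table.

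Kif7, a regulator of Hedgehog signalling at the tip of the primary cilium, differed between conditions in direction. It was higher with Myc-ER, 462 against 298 in unsorted spheres and 540 against 226 in PKH-negative cells, and lower in knockout spheres, 145 against 304. In the authors' deposited tables its log2 fold changes there were 0.63, 1.24 and -1.06, with implied standard errors of 0.119, 0.147 and 0.178. Of the exonic length of Kif7, 20.3% overlaps genes on the opposite strand, Ticrr among them. Kif27, a Kif7 relative of motile cilia, was called in both Myc-ER comparisons, 84.0 against 35.6 and 95.5 against 19.4. Kif26a, an atypical kinesin, was higher with Myc-ER in both settings, 317 against 135 and 256 against 55.0, and in PKH-high cells, 371 against 50.6. Kif2a removes tubulin from microtubule ends at spindle poles and in neurons. It was called higher with Myc-ER in both settings, 2609 against 1893 and 3283 against 2112. Dimt1 overlaps 19.2% of the exonic length of Kif2a on the opposite strand. Kif6, Kif9, Kif19a and Kif26b were called in no table, with Kif6 and Kif19a at means under 60 wherever they were listed. Markers of ciliated cells were scarce: 4 of 10 were listed at most, summed to between 201 and 411 per group, and 0 to 1 of them was called in each direction.

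The remaining transport machinery was read from lists of its known members. Of 25 dynein and dynactin genes, which form the minus-end directed motor and its activator, 3 were higher and 11 lower in Myc-ER spheres, 4 and 7 in knockout spheres, and at most 2 in each direction in the other tables. These 14 and 11 called genes are near the 50.8% and 45.9% of all genes called there. Over all genes, 24.1% and 23.6% were called lower there, beside 11 and 7 of the 25 dynein and dynactin genes. Their median log2 fold changes in the authors' deposited tables lay between -0.20 and 0.11. Dync1i1, a neuronal dynein intermediate chain, was lower in Myc-ER spheres (5.25 against 25.9), in the spheres labelled ErbB2 tumour (2.08 against 24.0), in knockout spheres (1.46 against 26.6) and with Myc-ER in PKH-negative cells (6.38 against 21.1). Of 16 or 17 listed cargo adaptors, 3 were higher and 4 lower in Myc-ER spheres, 1 and 1 in the spheres labelled ErbB2 tumour, 2 and 1 after Nutlin-3, 3 and 3 in knockout spheres, 2 and 0 in PKH-high cells and 1 and 5 with Myc-ER in PKH-negative cells. Counted in either direction, these are below or near the shares of all genes called. Those shares were 50.8%, 27.1%, 14.7%, 45.9%, 30.7% and 37.5% in this order. With Myc-ER in PKH-negative cells 18.5% of all genes were called lower. Mapk8ip1, the scaffold that links kinesin light chains to cargo, fell from 6675 to 2266 in Myc-ER spheres and from 8250 to 1714 with Myc-ER in PKH-negative cells. Of 18 intraflagellar transport genes, whose trains kinesin-2 pulls, 10 were higher in Myc-ER spheres, 7 in the spheres labelled ErbB2 tumour, 10 in knockout spheres and 6 with Myc-ER in PKH-negative cells, with 0, 1, 2 and 0 lower, while 6 were lower and 1 higher in PKH-high cells and 1 was lower after Nutlin-3. Over all genes 26.7%, 13.5%, 22.3% and 18.9% were called higher in the first 4 of these comparisons and 15.1% lower in PKH-high cells. Counted in either direction, the intraflagellar transport genes were called near the shares over all genes with Myc-ER, 50.8% in unsorted spheres and 37.5% in PKH-negative cells. Wdr35 rose from 1506 to 4076 in Myc-ER spheres. Among kinesin subunits, the light chain Klc4 was lower in Myc-ER spheres (384 against 701) and higher in PKH-high cells (905 against 487), and Kifap3, the partner of Kif3a and Kif3b, was lower with Myc-ER in both settings, 1574 against 2071 and 1860 against 2594. The whole list of 10 kinesin relatives and subunits had 4 higher and 4 lower in Myc-ER spheres. The counts were 3 and 0 in the spheres labelled ErbB2 tumour, 1 and 3 after Nutlin-3 and 4 and 2 in knockout spheres. They were 3 and 3 in PKH-high cells and 0 and 2 with Myc-ER in PKH-negative cells. Of all genes, 50.8%, 27.1%, 14.7%, 45.9%, 30.7% and 37.5% were called in either direction in this order. Cenpe, Kifc1 and Kifc5b belong to this list. They made up the 3 higher calls in the spheres labelled ErbB2 tumour and the 3 lower calls after Nutlin-3 and in PKH-high cells.

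Markers of cell types also differed along with the comparisons against empty-vector spheres. The summed mean of macrophage markers was 1399 against 3777 in Myc-ER spheres, where 9 of 9 listed were lower, 757 against 3332 in the spheres labelled ErbB2 tumour, where 4 of 6 were lower, and 132 against 3863 in knockout spheres, where 9 of 9 were lower and Tyrobp, C1qa and C1qb were at 0. Endothelial markers summed to 5627 against 10254, 2387 against 4626 and 2253 against 10496, with Sox17 at 0 in the spheres labelled ErbB2 tumour and in knockout spheres, and 6 of 10, 4 of 5 and 8 of 10 were lower. Epithelial markers summed to 9039 against 9853 in Myc-ER spheres, with 1 of 10 lower, and 12285 against 6793 for the 4 listed in the spheres labelled ErbB2 tumour. Itga6, which was called higher with 12074 against 5533, made up most of that sum, while Acta2 was called lower with 29.3 against 503, and Krt18 and Trp63 were not called, with 175 against 733 and 7.71 against 24.2. In knockout spheres the epithelial sum was 13420 against 10072, again mostly Itga6, called higher with 11241 against 6129, while 5 of 9 were lower, among them Epcam with 7.88 against 596. Fibroblast markers summed to 297828 against 749253, 422124 against 703478 and 516522 against 779302, with 7 of 9, 4 of 10 and 3 of 10 lower. Over all genes 24.1%, 13.6% and 23.6% were called lower in these 3 comparisons. In the Nutlin-3 table the epithelial, macrophage, endothelial and fibroblast sums were 7755 against 11235, 1881 against 995, 1918 against 1630 and 329821 against 332153, with 0 to 1 marker called in each direction and C1qc at 0 in the untreated tumour spheres. With Myc-ER in PKH-negative cells they were 6806 against 7121, 1057 against 1039, 3628 against 6239 and 297394 against 577938, and in PKH-high cells the fibroblast sum was 365468 against 531381. The part of these cell types in the kinesin results was not tested.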

How the data were processed

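The 6 deposited tables hold group means of normalised counts as a signal made by the authors, log2 fold changes and p-values for each gene, and were read without single-library values. Per the submitters' processing notes, reads were processed with TopHat2 2.0.8 and Bowtie2 2.1.0 among other tools (HTSeq 0.5.3p9, CASAVA 1.9, SAMtools 0.1.18), DESeq2 1.10.1 was used, and the build was mm10. Per the file headers, the normalised count was made by the authors with DESeq2 and only genes with a mean above 10 were kept. The log2 fold change and the p-value are likewise the deposited values of the authors' DESeq2 test, the log2 values of the Nutlin-3 table being means over treated and untreated pairs. Each table was normalised separately, so levels in different tables are only set side by side.

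From these values, a gene was called at an adjusted p under 0.05, the deposited adjustment being matched by a recomputed Benjamini-Hochberg value to within 9.15e-07. Standard errors were derived as the size of the log2 fold change over the normal deviate that its 2-sided p stands for. The per-kilobase level divides the mean by the exonic length in GENCODE M21. Entries that name no gene, 3 in all, stand in the table of the knockout and hold 28.2% (knockout) and 29.7% (empty vector) of the summed means. They were left out of counts and tests. The headers call replicates biological. The precision of each mean rests on 2 to 5 libraries, and depth per library is unknown.

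The members, classes and other gene lists were chosen with earlier results of these data known. Every kinesin is eligible to be named, with up to 3 called members of each other list per comparison, Cenpe, Kifc1, and Myc and Trp53 as checks of the labels. Other genes named were picked after their values were seen. These were Epcam, Krt8, Cdh1, Lyz2, Pecam1, Col3a1, Itga6, Map2, Tubb3, Nefl, Lin9, Cdkn1a and Erbb2. They also include Plk1, Prc1, the Mcm genes, markers at 0 and subunits. Alternatives covered the threshold, a fold limit, a mean limit, centring, ratios of means, class membership, the entries without a gene and, added after the data were seen, Bonferroni adjustment, the length scale and the test of the difference between Myc-ER effects. The scripts were tested on simulated data. Python 3.11.15, pandas 2.3.3, NumPy 2.4.6, SciPy 1.17.1 and matplotlib 3.10.9 were used.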

Additional observations from a re-analysis of the deposited data

Results flagged for a closer look

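Kif18b differed between the unsorted and the PKH-negative setting in its response to Myc-ER, by a test of the difference itself. Its log2 fold change in the authors' deposited tables was 1.36 in unsorted spheres and -0.51 in PKH-negative cells, a difference of 1.87. Kif7 differed by the same test in the other direction, with 0.63 and 1.24 in the authors' deposited tables and a difference of -0.62. Both adjusted p-values, 0.0184 and 0.0255 by the normal test, are over 13431 genes, of which 6.4% were called. No other of the 35 kinesins was called, so kinesins were called near that share. All 11 mitotic kinesins differed in the direction of Kif18b, by 0.77 to 1.87. The reference groups differ in infection, passage and sorting, which cannot be told apart from the setting.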

How the results depend on the processing

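No paired analysis was possible because the tables hold group means only, and the Nutlin-3 table was already analysed by the authors in pairs. For the same reason leaving out a replicate and another normalisation were not run. An adjusted p under 0.01 and leaving out entries without a gene kept all class counts, taken over both directions, within 1.5 times. Centring on the median of all genes and ratios of means left the adjusted p unchanged, so they could not change these counts. They could alter only the direction of a call, and no called kinesin changed direction. At 0.01 some counts by direction fell from 2 to 1, namely transport kinesins higher in Myc-ER and knockout spheres and lower in the spheres labelled ErbB2 tumour, and other kinesins lower in PKH-high cells. Kif4 in Myc-ER spheres (adjusted p 0.0135 in the authors' deposited table) was not called at 0.01. Requiring a 2-fold change in addition left 2 transport and 3 other kinesins in Myc-ER spheres, 0 transport kinesins after Nutlin-3 and with Myc-ER in PKH-negative cells, 2 in knockout spheres and 1 in PKH-high cells. A mean of at least 100 left 2 transport kinesins in the spheres labelled ErbB2 tumour. With Kif2a and Kif24 counted as mitotic, 1 other kinesin was called in the spheres labelled ErbB2 tumour, 0 after Nutlin-3, and 1 mitotic kinesin, Kif2a, with Myc-ER in PKH-negative cells. Kif2a was not called in the spheres labelled ErbB2 tumour, after Nutlin-3, in knockout spheres or in PKH-high cells, nor Kif24 in PKH-high cells. In those comparisons the call of every mitotic kinesin thus depends on the class membership chosen. Bonferroni adjustment, added after the data were seen, left 2 mitotic and 0 transport kinesins in Myc-ER spheres, 8 mitotic, 0 transport and 0 other in the spheres labelled ErbB2 tumour, and 11 mitotic after Nutlin-3. It left 2 mitotic and 1 transport in knockout spheres, where the balance of transport kinesins turned to 1 higher and 0 lower, 3 mitotic, 1 transport and 1 other in PKH-high cells, and 0 transport and 2 other with Myc-ER in PKH-negative cells. The cause of these changes is the stricter limit. The mitotic share was 41.8% against 18.4% in Myc-ER spheres per kilobase of the longest transcript and 31.6% against 12.3% without length, both added after the data were seen.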
